A study of Mus musculus with 18 samples.

Results

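Cell cycle and DNA replication genes were examined in mouse liver. The members were 47 genes, chosen as the loci of the deposited count files whose symbol stood on a fixed list, out of 31099 loci with a gene identifier. By textbook roles 23 of them act in late G1 or in DNA replication (the G1/S class), 22 act in G2 or mitosis (the G2/M class), and Cdkn1a and Myc make up the 2 others. Livers came from wild type mice (Ppara+/+, called WT) and Ppara-null mice (Ppara-/-, called KO), all 8 weeks old and on a mixed C57BL/6 and SV129 background. Each genotype was fed a normal diet (control), chow with 0.1% Wy14,643 (Wy) or chow with 0.5% fenofibrate for 48 h. Both compounds are agonists of PPARA, the nuclear receptor that drives fatty acid oxidation genes in liver. Each of the 6 groups held 3 libraries of polyadenylated RNA. RNA from 3 to 5 livers was combined in a library. Pool size differed between groups. Libraries held 5 livers each in WT control, 4 or 5 in WT Wy and KO control, 3 in WT fenofibrate, and 3 or 4 in KO Wy and KO fenofibrate. Differences between single animals are therefore not seen, and p-values rest on the spread between pools. The labels do not say which part of Ppara was removed in the null allele.

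Adult hepatocytes are mostly quiescent, outside the division cycle. A cell that enters the cycle makes D-type cyclins, which release E2F transcription factors from the RB family, and E2F targets then supply the replication helicase, its loaders and the enzymes of nucleotide synthesis. Genes of G2 and mitosis follow later, under the DREAM complex, B-MYB and FOXM1, which act through CHR elements, often beside CCAAT boxes bound by NF-Y. In rodent liver, PPARA agonists are known to cause peroxisome proliferation and hepatocyte division.

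Of the 47 members 45 were tested, 22 of the G1/S class, 21 of the G2/M class and both others. Tk1 lies inside Afmid and Prc1 inside Rccd1, and both held 0 counts in all 18 libraries, so they were taken as not measured. Libraries totalled 68.9 to 151 M counts, or 31.8 to 44.5 M without the 25 loci of the major urinary proteins (Mup). The Mup loci held 69% to 73% of the counts in WT control, 51% to 56% in WT Wy and 49% to 59% in WT fenofibrate. They held 60% to 65% in KO control, 69% to 77% in KO Wy and 62% to 69% in KO fenofibrate. Library totals include these counts. Ppara was counted at 50.5 to 83.5 counts per M counts of its library (CPM, scaled by TMM) in the 9 WT libraries and at 12.3 to 20.2 CPM in the 9 KO libraries. All 8 hepatocyte markers were detected in every group. Their summed level was 36711 to 37079 CPM in WT control, 19305 to 23008 in WT Wy, 17533 to 19285 in WT fenofibrate, 37344 to 42195 in KO control, 35830 to 37438 in KO Wy and 25679 to 35502 in KO fenofibrate. One library stood apart: WT Wy 3 held 308 counts of Xist, a transcript of the female inactive X chromosome, against 0 or 1 in the other libraries. Every fold change is read against the median gene, whose own value under library-total scaling was shifted by 0.79 log2 units for Wy in WT, 0.82 for fenofibrate in WT, -0.33 for Wy in KO, 0.05 for fenofibrate in KO and 0.32 for KO control against WT control.

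The promoters of the members are shown first, because the 2 classes differ in the letters they carry. RefSeq windows on GRCm38.p6, from 250 bases before to 50 after a start, were matched for 36 of the 47 members. They were searched on both strands for E2F octamers (TTTCCCGC, TTTGGCGC, TTTCGCGC, TTTGCCGC, TTTGGCGG, TTTCCCGG), the CHR hexamer TTTGAA or its variant TTCGAA, and the CCAAT box. An E2F octamer was present in 7 of 18 G1/S promoters (38.9%), in 2 of 17 G2/M promoters (11.8%) and in 4.04% of 27025 promoters of all genes. A CHR hexamer was present in 3 of 18 G1/S promoters (16.7%), 13 of 17 G2/M promoters (76.5%) and 19.4% of all promoters. A CCAAT box was present in 10 of 18 (55.6%), 15 of 17 (88.2%) and 37.9%, respectively. Both a CHR hexamer and a CCAAT box were held by 3 of 18 G1/S promoters, 13 of 17 G2/M promoters and 7.70% of all promoters. These matches are descriptions of letters, not of bound sites.

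The 250 bases before the start are printed for 3 G1/S helicase genes and 3 G2/M genes, as examples that carry the motifs of their class. They are Mcm6 (chr1:128359706-128359955, minus strand), Mcm5 (chr8:75109259-75109508, plus strand), Mcm7 (chr5:138171884-138172133, minus strand), Top2a (chr11:99024190-99024439, minus strand), Cdk1 (chr10:69352913-69353162, minus strand) and Ube2c (chr2:164769679-164769928, plus strand). Each is written from 5′ to 3′ on the strand of its gene. Capitals mark E2F octamers, CHR hexamers and CCAAT boxes on either strand, and adjoining or overlapping matches form 1 run of capitals.
Mcm6: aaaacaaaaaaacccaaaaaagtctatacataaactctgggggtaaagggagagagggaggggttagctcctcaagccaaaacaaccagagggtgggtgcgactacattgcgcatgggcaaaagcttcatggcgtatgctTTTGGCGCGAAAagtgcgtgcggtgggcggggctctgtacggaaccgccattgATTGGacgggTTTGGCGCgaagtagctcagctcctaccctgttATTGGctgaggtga
Mcm5: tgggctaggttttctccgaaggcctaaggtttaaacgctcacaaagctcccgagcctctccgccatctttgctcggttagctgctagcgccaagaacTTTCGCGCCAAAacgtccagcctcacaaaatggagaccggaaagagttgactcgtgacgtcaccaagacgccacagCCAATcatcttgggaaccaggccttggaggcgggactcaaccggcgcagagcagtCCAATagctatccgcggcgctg
Mcm7: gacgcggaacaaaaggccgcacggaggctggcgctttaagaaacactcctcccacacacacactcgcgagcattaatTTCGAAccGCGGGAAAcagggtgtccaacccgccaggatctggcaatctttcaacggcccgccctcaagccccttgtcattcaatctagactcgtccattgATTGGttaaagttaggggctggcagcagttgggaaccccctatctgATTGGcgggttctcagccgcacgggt
Top2a: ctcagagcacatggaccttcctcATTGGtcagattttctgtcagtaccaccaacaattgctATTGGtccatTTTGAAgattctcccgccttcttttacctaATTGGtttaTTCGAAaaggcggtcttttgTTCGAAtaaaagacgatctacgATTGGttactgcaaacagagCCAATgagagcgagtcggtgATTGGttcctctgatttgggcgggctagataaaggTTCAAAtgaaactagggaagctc
Cdk1: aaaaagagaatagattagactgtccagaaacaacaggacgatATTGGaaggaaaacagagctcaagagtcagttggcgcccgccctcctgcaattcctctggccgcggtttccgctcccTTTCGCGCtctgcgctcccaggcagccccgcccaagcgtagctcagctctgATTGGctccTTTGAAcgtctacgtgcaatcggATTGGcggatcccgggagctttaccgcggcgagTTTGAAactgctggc
Ube2c: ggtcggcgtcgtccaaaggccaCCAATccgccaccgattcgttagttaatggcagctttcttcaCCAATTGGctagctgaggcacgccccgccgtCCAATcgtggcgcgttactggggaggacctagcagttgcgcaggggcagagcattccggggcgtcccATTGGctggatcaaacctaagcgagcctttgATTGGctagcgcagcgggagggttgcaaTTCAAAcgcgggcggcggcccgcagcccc
In Mcm6 the run TTTGGCGCGAAA holds octamers on both strands, which overlap and begin 110 and 106 bases before the start. In Mcm5 the run TTTCGCGCCAAA does the same at 153 and 149 bases. Mcm7 carries a further octamer, 16 bases after the start and so outside the printed stretch. Top2a holds 4 CHR hexamers and 6 CCAAT boxes, Cdk1 holds 2 and 3 with 1 E2F octamer, and Ube2c holds 1 and 6. Other members called below lack the motifs of their class. The G1/S members E2f8 and Mcm2 hold 0 E2F octamers, with 1 CHR hexamer and 1 CCAAT box each. Uhrf1 also holds 0 E2F octamers. The G2/M member Birc5 holds 1 E2F octamer, 0 CHR hexamers and 0 CCAAT boxes.

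**Figure D1:**
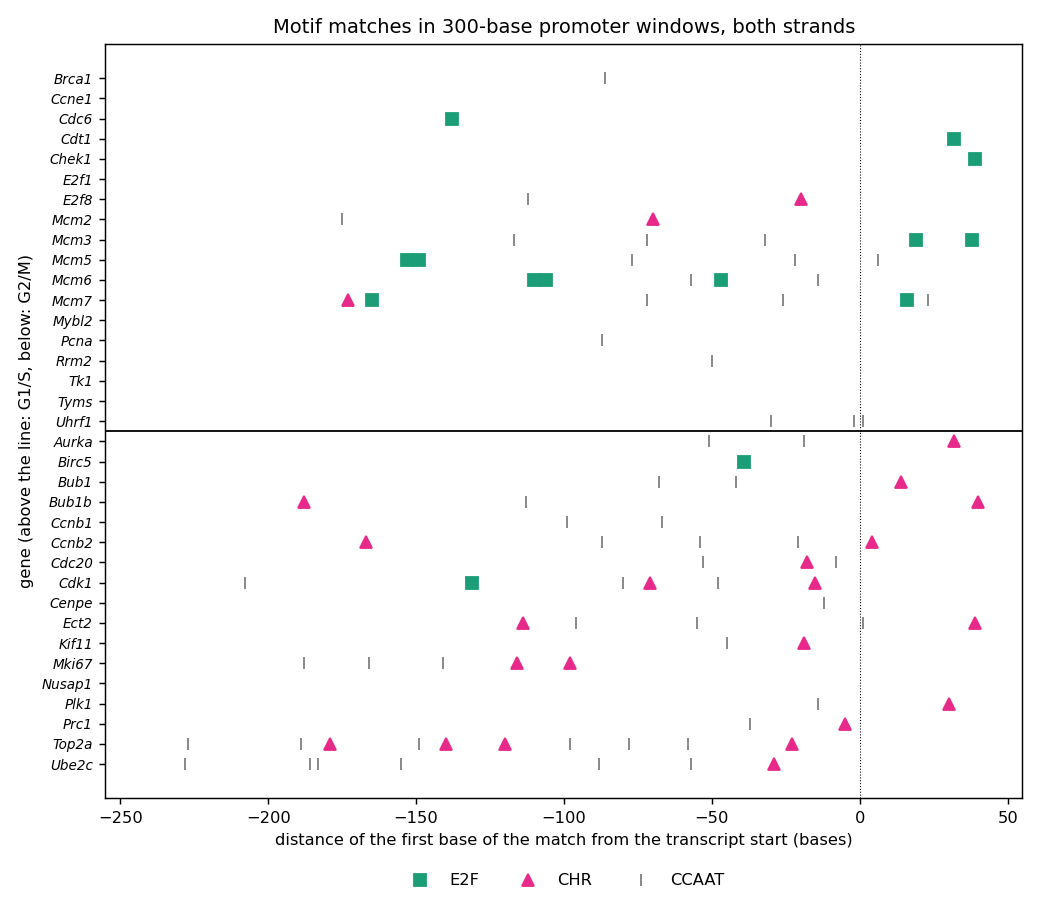
Motif matches in RefSeq promoter windows (GRCm38.p6) of members, by distance from the transcript start in bases. Squares are E2F octamers, triangles CHR hexamers and grey ticks CCAAT boxes; E2F squares fall mostly on the G1/S genes above the line and CHR triangles mostly on the G2/M genes below it.

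The first comparison asked how WT liver responded to Wy. Most replication genes rose, and most mitotic genes did not pass the test. Of 45 members tested 22 were called higher and 0 lower (edgeR's quasi-likelihood test, Benjamini-Hochberg adjusted p under 0.05 over 14241 genes), where 39.2% of all genes were called, 20.2% higher and 19% lower. The calls comprised 16 of 22 G1/S members, 4 of 21 G2/M members, Cdkn1a and Myc. With scaling by library totals 21 of 22 G1/S and 17 of 21 G2/M members were called higher, where 9700 of 14241 genes were. The number of mitotic calls is thus tied to the scaling, as is that of all genes. With TMM scaling and the Mup loci left out, 23 members were called higher and 0 lower. The median log2 fold change was 1.52 over the G1/S class and 0.49 over the G2/M class, against -0.02 over all genes tested, and with library totals the class medians were 2.31 and 1.30. The 3 Wy and 3 control libraries did not overlap for 24 of 45 members, where 55.7% of all genes had groups that did not overlap. The 22 calls went to 21 without WT Wy 3, the library with Xist counts, and to 18 without either WT Wy 1 or WT control 3. In bulk tissue, fewer cells of a type and less RNA per cell cannot be told apart.

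The minichromosome maintenance genes Mcm2 to Mcm7 encode the 6 subunits of the replicative helicase, and all 6 rose with Wy in WT. Mcm6 stood at 0.529, 0.431 and 0.348 CPM in the WT control libraries and at 7.85, 4.68 and 3.52 CPM with Wy. The lowest Wy library was above every control, and the log2 fold change was 3.60 ± 0.39 (SE, n = 3 against 3, adjusted p = 7.2e-07). Mcm5 went from 1.15, 0.811 and 0.371 CPM to 11.7, 6.47 and 6.31 CPM, a log2 fold change of 3.37 ± 0.42 (adjusted p = 3.9e-06). Mcm7 went from 2.99, 2.96 and 2.91 CPM to 13.5, 8.85 and 8.00 CPM (1.78 ± 0.20, adjusted p = 8.5e-07). In both genes the groups did not overlap, and the first Wy library was the highest. The Mcm7 locus overlaps Cops6 on the other strand, which was more abundant and rose by 1.33 ± 0.12, so the part of each in the reads is uncertain. The fold changes of Mcm2, Mcm4 and Mcm3 were 2.69, 1.84 and 1.77 on the log2 scale.

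The factors that load the helicase rose as well. Cdc6 and Cdt1, which bring the helicase to origins, had log2 fold changes of 2.57 ± 0.63 (adjusted p = 0.0034) and 1.66 ± 0.29 (adjusted p = 0.00019). Cdc6 was scarce, at 0.0371 to 0.0695 CPM in control and 0.140 to 0.446 CPM with Wy. Gins1, a subunit of the active helicase, rose by 1.02 ± 0.27 (adjusted p = 0.005), while its partner Gins2 had a value of 0.54 ± 0.22 that did not pass the test.

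Among regulators, E2f8 had the smallest p of all members. E2f8 is an atypical E2F that represses E2F targets late in S phase. Its level was 1.22, 1.46 and 1.26 CPM in WT control and 7.81, 7.95 and 6.27 CPM with Wy, a log2 fold change of 2.48 ± 0.13 (adjusted p = 2.2e-11). The Wy libraries lay far above the controls and close to each other. The E2f8 locus overlaps LOC545966 on the other strand, which had more counts in total and rose by 1.58 ± 0.23, and reads of the 2 loci cannot be told apart with certainty. The activator E2f1 rose by 0.96 ± 0.33 (adjusted p = 0.028), a call that was lost without WT control 1, WT control 3 or WT Wy 1 (adjusted p up to 0.24).

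Ccnd1, cyclin D1, which starts the passage through G1, stood at 6.55, 6.97 and 5.35 CPM in WT control and at 13.6, 12 and 9.66 CPM with Wy. All Wy libraries were higher, with a log2 fold change of 0.90 ± 0.25 (adjusted p = 0.0075). Its locus overlaps Oraov1 on the other strand, which rose by 0.97 ± 0.16. The E-type cyclins Ccne1 and Ccne2, partners of CDK2 at the entry to S phase, had values of -0.26 ± 0.25 and 0.28 ± 0.24 and were not called.

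Chek1, the kinase of the S phase checkpoint, and Uhrf1, which guides DNA methylation onto new strands, were among the largest rises. Chek1 went from 0.102, 0.0616 and 0.116 CPM to 1.39, 0.807 and 0.558 CPM (log2 fold change 3.29 ± 0.49, adjusted p = 2.7e-05). Uhrf1 went from 0.121, 0.123 and 0.162 CPM to 1.98, 1.14 and 0.715 CPM (3.25 ± 0.51, adjusted p = 5.1e-05). In both, every Wy library exceeded every control. Rrm2, the S phase subunit of ribonucleotide reductase, rose by 1.39 ± 0.29 (adjusted p = 0.001). Pcna, the sliding clamp of the polymerases, rose by only 0.42 ± 0.14 (adjusted p = 0.026) and lost the call without WT control 1, WT control 3 or WT Wy 1 (adjusted p up to 0.18). Not called were Tyms, the thymidylate synthase (0.20 ± 0.13), the repair gene Brca1 (0.12 ± 0.25) and Mybl2, which encodes B-MYB (0.24 ± 0.46).

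**Figure D2:**
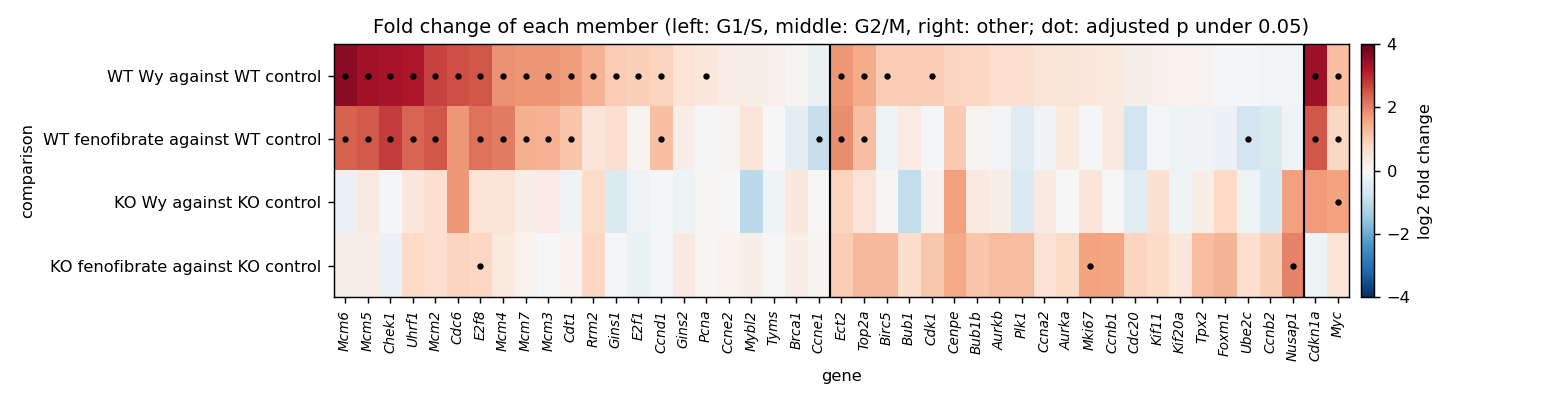
Log2 fold change of each of the 45 tested members (columns, ordered within each class by the response of WT to Wy) in 4 comparisons of a diet with its control (rows); dots mark adjusted p under 0.05. The 16 dots of the G1/S class in WT Wy stand against 4 in the G2/M class, and the G2/M block is reddest in KO fenofibrate.

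The 4 G2/M members called with Wy in WT were Ect2, Top2a, Birc5 and Cdk1. As 4 of 21, their share was near the 20.2% of all genes called higher. Top2a, the topoisomerase that untangles sister chromatids, stood at 0.446, 0.287 and 0.232 CPM in WT control and at 1.05, 0.846 and 0.829 CPM with Wy (log2 fold change 1.48 ± 0.33, adjusted p = 0.0016). Ect2, an activator of RhoA in cytokinesis, went from 0.548, 0.205 and 0.255 CPM to 1.64, 0.942 and 0.855 CPM (1.75 ± 0.42, adjusted p = 0.0028). Neither gene's groups overlapped. Birc5, survivin of the chromosomal passenger complex, went from 0.371, 0.246 and 0.324 CPM to 0.697, 0.452 and 0.733 CPM (1.00 ± 0.35, adjusted p = 0.029). Cdk1, the kinase that drives entry into mitosis, went from 0.836, 0.554 and 0.510 CPM to 1.5, 1.25 and 1.03 CPM (0.98 ± 0.36, adjusted p = 0.039). The Wy libraries of both were above all controls. Without single libraries, however, Birc5 lost its call when WT control 2, WT control 3, WT Wy 1 or WT Wy 3 was left out (adjusted p up to 0.11). Cdk1 lost it without WT control 2, WT control 3, WT Wy 1 or WT Wy 2 (adjusted p up to 0.13).

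The other 17 G2/M members were not called with Wy in WT. Mki67, the proliferation marker Ki-67, stood at 0.353, 0.287 and 0.394 CPM in WT control and at 0.462, 0.413 and 0.497 CPM with Wy. The groups did not overlap, yet the log2 fold change of 0.41 ± 0.34 did not pass the test (adjusted p = 0.36). Under library totals it was 1.22 and called (adjusted p = 0.0054). Ube2c, the conjugating enzyme of the anaphase promoting complex, stood at 0.929, 0.832 and 0.684 CPM against 0.994, 0.625 and 0.759 CPM (-0.04 ± 0.25). The transcription factor Foxm1 had a value of -0.03 ± 0.37, the cyclin Ccnb1 one of 0.39 ± 0.44 and the spindle gene Nusap1 one of -0.12 ± 0.39.

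The 2 members outside the classes both rose with Wy in WT. Cdkn1a encodes p21, an inhibitor of cyclin-dependent kinases and a target of p53. Its level was 1.62, 1.11 and 1.05 CPM in WT control and 12.7, 12.2 and 14.9 CPM with Wy, a log2 fold change of 3.39 ± 0.36 (adjusted p = 6.0e-07). Cdkn1a thus had the second largest fold change among the tested members, after Mcm6. Myc, a transcription factor of growth genes, went from 1.18, 1.81 and 0.904 CPM to 3.45, 2.46 and 3.11 CPM (1.21 ± 0.29, adjusted p = 0.003). The groups of both genes did not overlap.

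**Figure D3:**
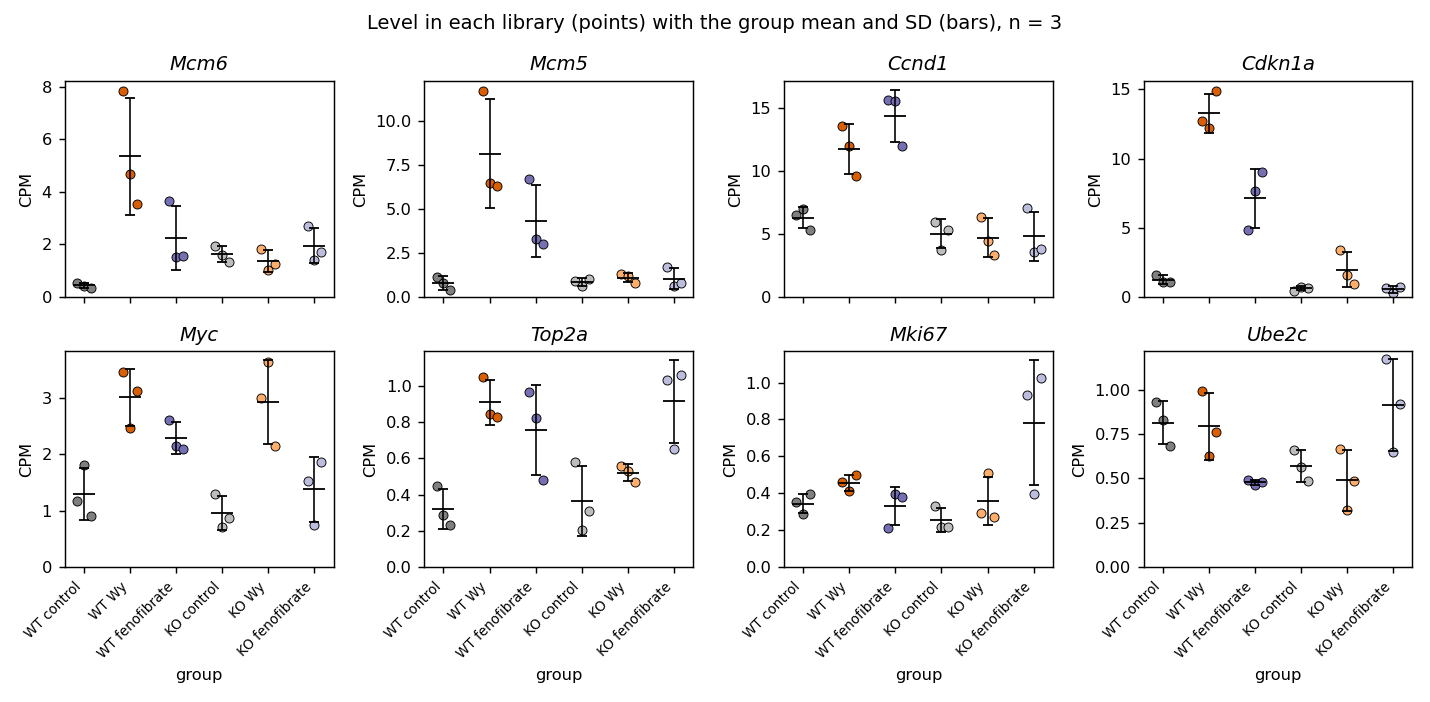
Level in CPM of 8 members in each of the 18 libraries (points), with the mean and SD of each group of 3 (bars). Mcm5, Ccnd1 and Cdkn1a are highest in the WT Wy and WT fenofibrate libraries. Mcm6 reaches its highest value in WT Wy, but some of its WT fenofibrate libraries lie below KO control libraries. Mki67 and Ube2c reach their highest values, 1.02 and 1.17 CPM, in KO fenofibrate.

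The second comparison asked the same of fenofibrate in WT, with the same 3 control libraries, so its values are not independent of those for Wy. Of 45 members 15 were called higher and 2 lower, where 36.9% of all genes were called, 19.3% higher and 17.6% lower. The higher calls were 11 of 22 G1/S members, 2 of 21 G2/M members, Cdkn1a and Myc, and the lower ones were Ccne1 and Ube2c. With scaling by library totals 29 were called higher and 0 lower, 20 in the G1/S and 7 in the G2/M class. Over all genes 10002 of 14241 were then called higher. With TMM scaling and the Mup loci left out, 17 members were called higher and 2 lower. The groups did not overlap for 17 of 45 members, against 48.7% of all genes. The median log2 fold change was 1.15 over the G1/S class and -0.10 over the G2/M class, against 0.01 over all genes, and with scaling by library totals the G2/M median turned to 0.69. Summed Kupffer cell markers (10 of 10 detected) were 79.0 to 86.9 CPM in WT control, 47.4 to 51.0 in WT Wy and 45.5 to 58.3 in WT fenofibrate. Summed lymphocyte markers (7 of 8 detected, Ms4a1 at 0) were 1.30 to 1.60, 0.628 to 1.13 and 0.700 to 1.44 CPM in the same groups. Stellate cell markers (7 of 8 detected, Lrat at 0) were 61.8 to 73.9, 48.9 to 52.3 and 53.6 to 55.3 CPM. Not every cell type fell. Erythroid markers (7 of 8 detected, Alas2 at 0) were 106 to 137, 168 to 217 and 85.9 to 194 CPM. The erythroid sums were thus higher with Wy than in control, without overlap. Endothelial markers (9 of 9 detected) were 63.4 to 88.1, 66.9 to 73.96 and 63.7 to 83.2 CPM, and these groups overlapped. The part of these cell types in the members' changes was not tested.

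All 6 helicase genes rose with fenofibrate too. Mcm4 stood at 1.03, 0.852 and 0.649 CPM in WT control and at 4.75, 3.65 and 2.22 CPM with fenofibrate (log2 fold change 2.06 ± 0.27, adjusted p = 6.0e-06). Mcm2 went from 0.659, 0.729 and 0.394 CPM to 5.05, 2.71 and 2.36 CPM (2.50 ± 0.38, adjusted p = 3.5e-05). Mcm7 reached 10.5, 6.77 and 6.47 CPM (1.42 ± 0.20, adjusted p = 1.3e-05). The first fenofibrate library was the highest for each, and no groups overlapped. Mcm6 reached 3.64, 1.52 and 1.57 CPM (2.36 ± 0.40) and Mcm5 reached 6.70, 3.29 and 3.05 CPM (2.46 ± 0.42). E2f8 reached 5.51, 5.69 and 6.61 CPM (2.18 ± 0.13, adjusted p = 1.5e-10), with LOC545966 up by 1.62 ± 0.23.

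Ccnd1 reached 15.7, 15.6 and 12 CPM with fenofibrate in WT (log2 fold change 1.19 ± 0.25, adjusted p = 0.00091), all above the 3 controls. Chek1 and Uhrf1 rose by 2.78 ± 0.49 and 2.32 ± 0.52. Cdt1 rose by 1.10 ± 0.30 (adjusted p = 0.0069) but missed the threshold without WT fenofibrate 1 (adjusted p = 0.058). Cdc6 (1.73 ± 0.67, adjusted p = 0.052) and Gins1 (0.69 ± 0.27, adjusted p = 0.053) lay just outside it. Rrm2 (0.48 ± 0.30), E2f1 (0.12 ± 0.34) and Pcna (-0.04 ± 0.14) were not called. Ccne1 fell by 0.93 on the log2 scale (SE 0.27, adjusted p = 0.010), from 1.30, 1.02 and 1.17 CPM to 0.738, 0.504 and 0.582 CPM. The fenofibrate libraries of Ccne1 were below all controls, and the call was lost without WT fenofibrate 2 (adjusted p = 0.052). With scaling by library totals the value was -0.13 (adjusted p = 0.62).

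In the G2/M class fenofibrate raised Ect2 and Top2a in WT. As 2 of 21, their share was below the 19.3% of all genes called higher. Ect2 reached 2.00, 0.903 and 0.827 CPM (log2 fold change 1.87 ± 0.42, adjusted p = 0.0017) and Top2a reached 0.967, 0.819 and 0.482 CPM (1.21 ± 0.34, adjusted p = 0.0081). Their lowest fenofibrate libraries were still above all controls. Ube2c stood at 0.492, 0.462 and 0.482 CPM, below every control, and fell by 0.77 on the log2 scale (SE 0.26, adjusted p = 0.026). That call was lost without WT control 1, WT control 2 or any 1 of the 3 fenofibrate libraries (adjusted p up to 0.095), and with scaling by library totals the value turned to 0.046. Cenpe, a kinesin of the kinetochore, was near the limit of detection, with 0.00929, 0.103 and 0.0464 CPM in control and 0.127, 0.0210 and 0.173 CPM with fenofibrate. Those groups overlapped, and the value of 1.06 ± 0.67 was not called, though it was 1.85 and called with library totals (adjusted p = 0.014). Birc5 (-0.21 ± 0.37), Cdk1 (-0.04 ± 0.38) and Mki67 (0.212, 0.399 and 0.382 CPM, -0.07 ± 0.35) were not called either.

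Cdkn1a reached 4.81, 7.63 and 9.0 CPM with fenofibrate in WT (log2 fold change 2.49 ± 0.36, adjusted p = 2.1e-05), with no overlap. Myc reached 2.60, 2.15 and 2.09 CPM (0.81 ± 0.30, adjusted p = 0.039). All 3 values exceeded the highest control, but Myc lost its call without WT control 1, WT control 3, WT fenofibrate 1 or WT fenofibrate 3 (adjusted p up to 0.16).

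Wy and fenofibrate were given at different doses in the diet, so the direct contrast of the 2 WT groups compares diets and not equal exposures. No member was called in it (0 of 45 by edgeR, where 0.899% of all genes were called), 14 had an unadjusted p under 0.05 (12.3% of all genes did), and DESeq2 called 1. The log2 difference of Wy minus fenofibrate was above 0 for 40 of 45 members. Members were measured in the same libraries, so this number of signs is a description and no test. The groups did not overlap for 7 of 45 members, where 22.1% of all genes had groups that did not overlap. Mcm6 had the smallest p, with a difference of 1.25 ± 0.33 (adjusted p = 0.091), followed by Birc5 with 1.2 ± 0.35 (adjusted p = 0.12). Without WT fenofibrate 1 the contrast called 3 members. A difference that misses the threshold does not show equal responses.

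The libraries of a group differed in how far the members moved. Each library was summarised by the median, over a class, of the log2 CPM minus the mean of the WT control libraries. For the G1/S class the medians were 1.99, 1.26 and 1.00 in WT Wy and 1.44, 0.82 and 0.80 in WT fenofibrate, against -0.01 to 0.08 in WT control. No treated WT library overlapped the controls or any KO library, which ranged from -0.10 to 0.37. WT Wy 1 held the highest value in its group for 20 of 22 G1/S members, and WT Wy 3 held the lowest for 21. WT fenofibrate 1 was the highest of its group for 19 of 22 G1/S and 18 of 21 G2/M members.

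For the G2/M class the medians were 0.79, 0.49 and 0.13 in WT Wy and 0.37, -0.45 and -0.19 in WT fenofibrate, against 0.39, -0.10 and -0.27 in WT control. These groups overlapped. Without WT fenofibrate 1, the G1/S median fold change with fenofibrate went from 1.15 to 0.73, with 10 members called higher instead of 11. Without WT Wy 1, the G1/S median with Wy went from 1.52 to 1.19, with 14 called instead of 16.

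**Figure D4:**
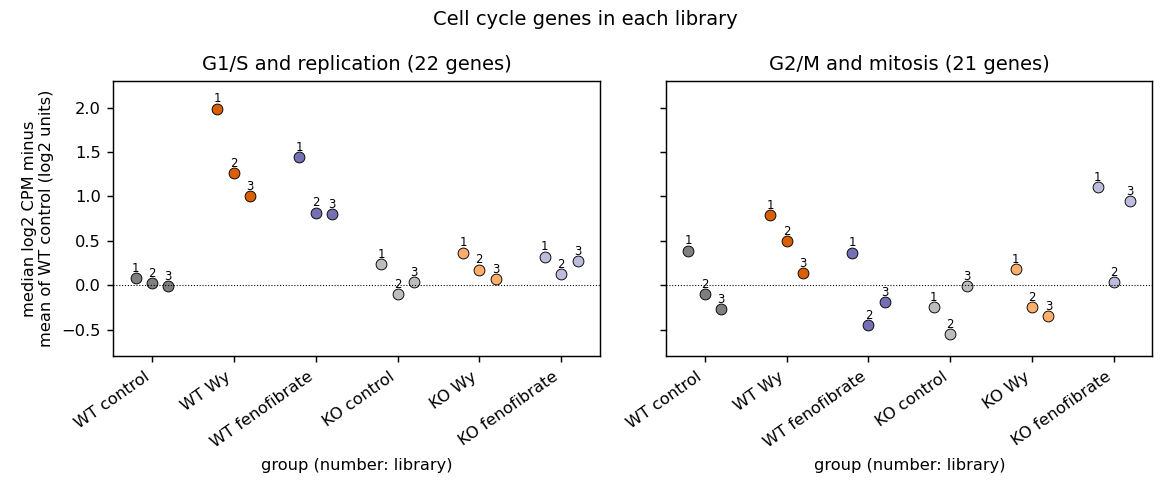
Median over each class of the log2 CPM minus the mean of the WT control libraries, for each of the 18 libraries (points, numbered within a group). In the G1/S panel the 6 treated WT libraries lie between 0.80 and 1.99, above all others; in the G2/M panel KO fenofibrate 1 and 3 are the highest, at 1.11 and 0.95.

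Without agonist, KO control against WT control gave 1 higher and 2 lower calls of 45, where 9.94% of all genes were called, 4.28% higher and 5.66% lower. Library totals gave 2 higher and 2 lower, where 2731 of 14241 genes were called, 2431 of them higher. The groups did not overlap for 9 of 45 members, against 29.8% of all genes. Mcm6 was higher in KO, at 1.94, 1.60 and 1.33 CPM against 0.529, 0.431 and 0.348 CPM (log2 fold change 1.89 ± 0.40, adjusted p = 0.0041). The other 5 helicase genes were not called, with values from -0.38 (Mcm2) to 0.12 (Mcm5). E2f8 was lower in KO, at 0.275, 0.277 and 0.309 CPM against 1.22, 1.46 and 1.26 CPM (-2.19 ± 0.16, adjusted p = 2.0e-08). Its opposite-strand neighbour LOC545966 was lower too, by a log2 fold change of -2.22 ± 0.26. The groups of Mcm6 and E2f8 did not overlap.

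Nusap1, which bundles spindle microtubules, was also lower in KO control, at 0.0916, 0.0514 and 0.0412 CPM against 0.241, 0.113 and 0.209 CPM (log2 fold change -1.58 ± 0.46, adjusted p = 0.035). The call was lost without WT control 1, WT control 3, KO control 2 or KO control 3 (adjusted p up to 0.15). Nusap1 has further loci of the same symbol on the other strand and overlaps Oip5, so its low counts are uncertain. Cdkn1a stood at 0.449, 0.740 and 0.669 CPM in KO control, below all WT controls, but was not called (-1.04 ± 0.41, adjusted p = 0.13). Ccnd1 (6.00, 3.73 and 5.35 CPM), Myc (1.29, 0.709 and 0.875 CPM), Mki67 (0.330, 0.216 and 0.216 CPM) and Top2a (0.577, 0.206 and 0.309 CPM) overlapped with WT control and were not called.

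Wy in KO liver gave 1 call among 45 members, Myc, where 0.239% of all genes were called. Library totals gave 3 higher and 2 lower, where 2980 of 14241 genes were called, 24 of them higher. The groups did not overlap for 13 of 45, against 22.1% of all genes. Myc stood at 1.29, 0.709 and 0.875 CPM in KO control and at 3.00, 3.62 and 2.14 CPM with Wy. The groups did not overlap, and the log2 fold change was 1.60 ± 0.30 (adjusted p = 0.033). The call was lost without any 1 of the 3 KO controls, KO Wy 1, KO Wy 2 or WT Wy 1 (adjusted p up to 0.15). In the G1/S class edgeR called 0 of 22, with 2 at an unadjusted p under 0.05, where 14% of all genes stood there, and a median of 0.03. In the G2/M class it called 0 of 21, with 3 at an unadjusted p under 0.05 and a median of 0.23 that turned to -0.14 with scaling by library totals. DESeq2 also called 0 in both classes, but gave an adjusted p for only 5 of the 21 G2/M members. Mcm6 (1.84, 1.02 and 1.26 CPM), Mcm5 (1.31, 1.19 and 0.802 CPM) and Ccnd1 (6.36, 4.44 and 3.34 CPM) overlapped with KO control. Cdkn1a stood at 3.36, 1.62 and 0.920 CPM, above all 3 KO controls, with a log2 fold change of 1.69 ± 0.39 that edgeR did not call (adjusted p = 0.068). DESeq2 called 2 members higher, Myc and Cdkn1a.

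Fenofibrate in KO liver gave 3 calls among 45 members, all higher, where 1.54% of all genes were called, 0.997% higher and 0.548% lower. The groups did not overlap for 12 of 45, against 16.2% of all genes. They were Mki67 and Nusap1 of the G2/M class and E2f8. Mki67 stood at 0.330, 0.216 and 0.216 CPM in KO control and at 0.931, 0.396 and 1.02 CPM with fenofibrate (log2 fold change 1.62 ± 0.34, adjusted p = 0.022). Nusap1 stood at 0.401, 0.152 and 0.199 CPM (1.98 ± 0.45, adjusted p = 0.032) and E2f8 at 0.596, 0.508 and 0.442 CPM (0.83 ± 0.17, adjusted p = 0.019). In each the fenofibrate libraries were above the 3 controls. E2f8 in KO thus stayed below the WT control level of 1.22 to 1.46 CPM.

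The median log2 fold change with fenofibrate in KO was 1.12 over the G2/M class and 0.19 over the G1/S class, against 0.01 over all genes, and all 21 G2/M members had a value above 0. Top2a (1.03, 0.650 and 1.06 CPM, 1.31 ± 0.33, adjusted p = 0.051), Birc5 (1.29 ± 0.35, adjusted p = 0.079) and Foxm1 (1.35 ± 0.38, adjusted p = 0.088) lay just outside the threshold. At an unadjusted p under 0.05 stood 18 of the 21, where 15.2% of all genes did. The 3 libraries were unlike: KO fenofibrate 2 held the lowest value of its group for all 21 G2/M members. Its class median was 0.03, against 1.11 and 0.95 for KO fenofibrate 1 and 3, and -0.55 to -0.01 for KO control. Left without KO fenofibrate 2, the test called 8 members, 7 of them in the G2/M class, and without KO fenofibrate 1 or KO control 2 it called 0. Fitting the 2 groups alone also gave 0 calls, and DESeq2 gave 8.

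Each of the 3 calls in KO fenofibrate hung on single libraries. E2f8 lost it without KO control 1, KO control 2 or KO fenofibrate 1 (adjusted p up to 0.094), and with scaling by library totals (adjusted p = 0.075). Mki67 lost it without any 1 of the KO controls, KO fenofibrate 1 or KO fenofibrate 3 (adjusted p up to 0.12). Nusap1 lost it without any 1 of the KO controls or KO fenofibrate 1 (adjusted p up to 0.15). Summed lymphocyte markers were 2.17 to 2.44 CPM in KO fenofibrate against 1.66 to 2.07 in KO control, Kupffer cell markers 85.7 to 127 against 93.1 to 105, infiltrating myeloid markers (8 of 8 detected) 9.69 to 17.6 against 9.84 to 10.5 and erythroid markers (7 of 8 detected, Alas2 at 0) 108 to 282 against 84.6 to 207. Of the infiltrating myeloid markers 7 were tested, and all 7 had a log2 fold change above 0 (median 0.64), with 1, S100a8, called higher. The part of these cell types in the G2/M values was not tested.

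The last tests compared the response of the 2 genotypes directly, as the KO response minus the WT response. For Wy 13 members had a smaller response in KO and 1, Nusap1, a larger one, where 14.1% and 14% of all genes were called in these directions (28.1% in either). The 13 were 12 of the G1/S class, namely Mcm2 to Mcm7, Ccnd1, E2f8, Cdt1, Gins1, Chek1 and Uhrf1, and Cdkn1a. Mcm6 showed the largest gap, -3.84 ± 0.53 log2 units (adjusted p = 2.7e-05), followed by Chek1 with -3.35 ± 0.77 (adjusted p = 0.0031). Cdkn1a had a gap of -1.69 ± 0.53 (adjusted p = 0.024), a call lost without WT control 2, WT control 3, KO control 2, KO control 3 or KO Wy 2 (adjusted p up to 0.068). The calls of Nusap1 and Ccnd1 were each lost without 9 of the 18 libraries, left out 1 at a time (adjusted p up to 0.096 and 0.12), and that of Mcm4 without WT control 3, WT Wy 1 or KO control 1 (adjusted p up to 0.068). Nusap1 also lost it with no filter on low counts (adjusted p = 0.056) and with scaling by library totals, where its value was 0.59 (adjusted p = 0.35). That scaling gave 36 smaller responses in KO and 0 larger ones, 21 in the G1/S and 14 in the G2/M class. Over all genes it called 10063 of 14241, only 203 of them with a difference above 0. Myc had one of 0.39 ± 0.42, not called, so no difference between the genotypes was shown for it.

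For fenofibrate the difference was called below 0 for 10 members and above 0 for 6, where 11.6% and 10.7% of all genes were called in these directions (22.3% in either). The differences below 0 were again in G1/S members, Mcm2 to Mcm7, Ccnd1, E2f8 and Chek1, and in Cdkn1a (-2.67 ± 0.56, adjusted p = 0.002). Those above 0 were Ccne1 and 5 G2/M members, Mki67 (1.68 ± 0.49, adjusted p = 0.019), Nusap1 (2.14 ± 0.60), Ube2c (1.44 ± 0.36, adjusted p = 0.0072), Foxm1 (1.57 ± 0.54) and Birc5 (1.49 ± 0.51). Ccne1 and Ube2c had been called lower in WT and were not called in KO, so their differences include the fall in WT. Ccne1, Foxm1 and Birc5 had adjusted p of 0.048, 0.045 and 0.045 and lost the call without 14, 12 and 10 of the 18 libraries, each left out alone. Mcm2 lost it without WT control 3, WT fenofibrate 1 or KO control 1 (adjusted p up to 0.068), and Mcm3 without WT fenofibrate 1 (adjusted p = 0.053). With scaling by library totals the balance changed to 18 differences below 0 and 1 above 0. Over all genes that scaling called 7432 of 14241, only 266 of them above 0. The values of Mki67 (0.89), Ube2c (0.66), Birc5 (0.72), Foxm1 (0.82) and Ccne1 (0.27) were then no longer called, with adjusted p from 0.11 to 0.50. Without KO fenofibrate 2, 20 members were called instead of 16.

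**Figure D5:**
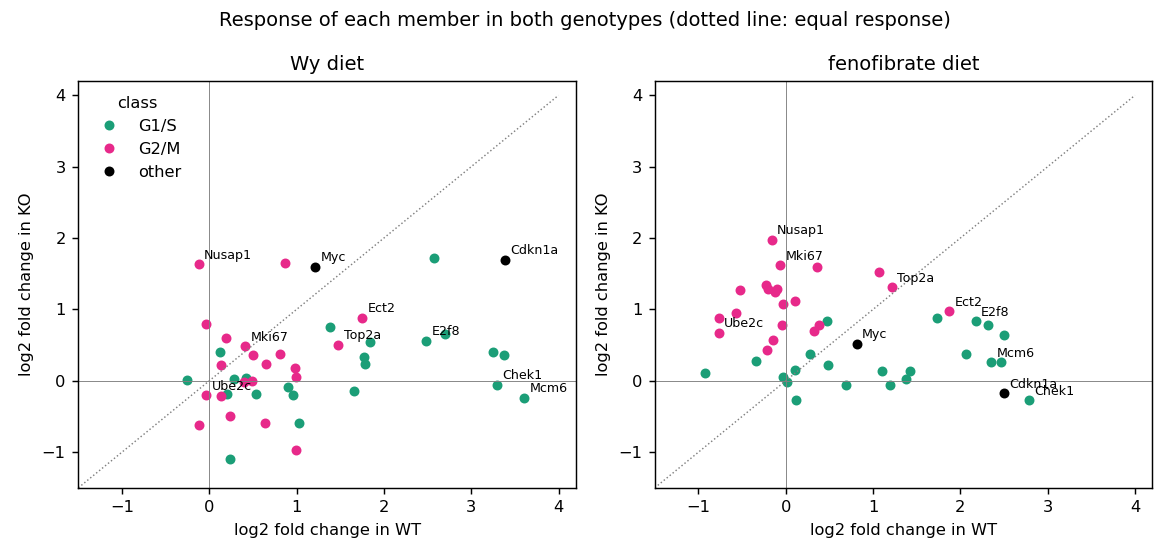
Log2 fold change of each tested member in WT (horizontal) and KO (vertical) for each diet, by class; the dotted line marks an equal response. G1/S members spread along the horizontal axis with both diets, up to 3.60 for Mcm6 with Wy, while all 21 G2/M members lie above 0 on the KO axis with fenofibrate.

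Levels of different genes can be compared only per length of their exons. The median level per kilobase was 0.235 CPM over the G1/S class and 0.0553 CPM over the G2/M class in WT control, 0.581 and 0.0737 in WT Wy and 0.507 and 0.0583 in WT fenofibrate. It was 0.318 and 0.0401 CPM per kilobase in KO control, and 0.322 and 0.103 in KO fenofibrate. Pcna, Ccnd1 and Mcm7 led the G1/S class in every group. Ube2c, at 0.313 CPM per kilobase in WT control and 0.351 in KO fenofibrate, led the G2/M class in all groups but WT Wy and WT fenofibrate, where Cdk1 (0.365) and Ect2 (0.239) were first.

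Other genes of the cycle were read from lists of textbook members. Of 29 further replication genes tested, 18 were called higher and 2 lower with Wy in WT (median 0.80), and 10 and 2 with fenofibrate (median 0.48). Over all genes 20.2% were higher and 19% lower with Wy, and 19.3% and 17.6% with fenofibrate, and the counts of the lists that follow stand against these shares. Lig1, which joins Okazaki fragments, rose by 2.11 ± 0.25 with Wy and 1.40 ± 0.25 with fenofibrate. Gins4, a partner of Gins1, rose by 0.99 ± 0.10 and 0.55 ± 0.10. Mcm10, an initiation factor, went the other way, with -1.13 ± 0.13 and -1.19 ± 0.13. Its locus held 56323 counts in total, against 3216 to 10110 for Mcm2 to Mcm7. Whether all of these reads come from Mcm10 transcripts was not tested. In KO, edgeR called 0 of the 29 with either diet, where 0.239% of all genes were called with Wy and 1.54% with fenofibrate. At an unadjusted p under 0.05 stood 2 with Wy and 4 with fenofibrate, where 14% and 15.2% of all genes did.

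Of 29 further mitotic genes 6 were called higher and 1 lower with Wy in WT (median 0.58), and 2 and 1 with fenofibrate (median 0.14), so the share of higher calls was near that of all genes with Wy and below it with fenofibrate. Spc25 and Ndc80 of the kinetochore rose with Wy by 2.48 ± 0.19 and 2.84 ± 0.65. The condensin subunit Smc2 rose by 1.06 ± 0.27 with Wy and 0.73 ± 0.28 with fenofibrate. In KO fenofibrate 1 of 29 was called, Cdca3 (1.56 ± 0.38, adjusted p = 0.049), where 1.54% of all genes were called. The median of the list was 0.74.

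Regulators upstream of the members were called in both directions, where 39.2% of all genes were called with Wy and 36.9% with fenofibrate. Of 12 further G1 cyclins, CDKs and CDK inhibitors, 2 were called higher and 4 lower with Wy in WT, with Ccnd3 at 0.73 ± 0.09, the p27 gene Cdkn1b at -0.74 ± 0.09 and Ccnd2 at -0.50 ± 0.13. With fenofibrate 3 were higher and 4 lower, with Cdkn1b at -0.75 ± 0.09. Of 15 genes of the E2F and RB families 3 were higher and 4 lower with Wy, and 2 and 4 with fenofibrate. The pocket protein gene Rbl2 had values of -0.85 ± 0.11 and -0.68 ± 0.11, and E2f2 of -1.43 ± 0.29 and -1.88 ± 0.30. Beside Cdkn1a, 3 of 14 further p53 targets rose with Wy and 4 with fenofibrate, near the 20.2% and 19.3% of all genes called higher. They were Perp, Ei24 and Fas with both diets, at 0.90 ± 0.09, 0.86 ± 0.10 and 1.33 ± 0.20 for Wy, and Mdm2 with fenofibrate. Of 8 immediate early genes, which Myc resembles in its quick response to growth factors, 0 rose with Wy and 2 fell, Ier2 (-1.14 ± 0.12) and Junb (-0.82 ± 0.19). DESeq2 was not run on this list by itself.

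The genes most like the members were ranked among 9702 genes of at least 1 CPM on average, by Pearson correlation of log2 CPM over the 18 libraries with the class mean. Libraries share their groups here, so the values describe a pattern and carry no test. For the 16 G1/S members called with Wy in WT the first was Rrm1, the large subunit of ribonucleotide reductase, with r = 0.957. It was followed by Nenf (0.952), Alg14 (0.945), Lmo4 (0.943) and Hsd17b12 (0.941). For the 21 G2/M members the first was D17H6S56E-5 (0.856), then Stmn1 (0.714), Wdr92 (0.713), the condensin subunit Ncapd2 (0.705) and Fbxo4 (0.693).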

How the data were processed

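Polyadenylated RNA of mouse liver was sequenced from stranded libraries. Following the labels, the 18 libraries form 6 groups of 3. Per the submitters' processing notes, the mm10 build, TopHat2 2.0.8, Trimmomatic 0.30, bcl2fastq and Picard are named. The deposited files hold whole-number read counts per locus, per the file headers. How reads were counted (tool, strand, overlapping loci) is not given in the sources used here. Of 52463 loci, 31099 carried a gene identifier and were used. Rows naming no gene (12, in 6 files) and 5 columns matching no sample stayed out. Loci were joined by coordinates and identifier, and 0 pairs of libraries were identical. Of the genes on marker and pathway lists, 3 were not found.

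After filterByExpr and TMM scaling, the 6 group means were estimated together by edgeR 4.0.16 (R 4.3.3, quasi-likelihood), which leaves 12 residual degrees of freedom. The F-test was adjusted by Benjamini-Hochberg over 14241 genes, at a threshold of 0.05, and every adjusted p printed without another tool's name comes from it. Each SE was derived from the fold change and its F statistic. The scripts were tested on simulated data. Alternatives were DESeq2 1.42.0, other scalings, the Mup loci left out, no filter, only the groups compared, a replicate block and each library left out. Restricting the count to members that overlap no other locus was chosen after seeing the data.

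The members and lists were chosen with earlier results of these data known. Per-library values are given for the 4 members with the smallest p per class in each WT diet comparison and for Ccnd1, Cdkn1a, Myc, Mki67 and Top2a. Up to 3 genes per further list and comparison, by smallest p, were named. Values of other members were added after they were seen. Intervals of counting error were not computed, since spread between pools was used. Motifs in promoters were searched as exact letters.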

Additional observations from a re-analysis of the deposited data

Results flagged for a closer look

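A total of 30 values drew attention because the response to a diet differed between the genotypes by a test of the difference itself (KO response minus WT response, log2 units, edgeR adjusted p under 0.05).

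For Wy the helicase genes responded less in KO, with differences of -2.04 for Mcm2, -1.45 for Mcm3, -1.29 for Mcm4, -3.00 for Mcm5, -3.84 for Mcm6 and -1.55 for Mcm7. The same held for Ccnd1 (-0.99), E2f8 (-1.92), Cdt1 (-1.81), Gins1 (-1.61), Chek1 (-3.35), Uhrf1 (-2.84) and Cdkn1a (-1.69). Nusap1 responded more in KO (1.75).

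For fenofibrate the differences were -1.85 for Mcm2, -1.36 for Mcm3, -1.68 for Mcm4, -2.20 for Mcm5, -2.10 for Mcm6 and -1.29 for Mcm7. They were -1.26 for Ccnd1, -1.34 for E2f8, -3.05 for Chek1 and -2.67 for Cdkn1a. Differences above 0 were those of Ccne1 (1.03), Mki67 (1.68), Birc5 (1.49), Foxm1 (1.57), Nusap1 (2.14) and Ube2c (1.44). Ccne1 and Ube2c had been called lower in WT and were not called in KO, so their differences include the fall in WT. Mcm6, E2f8 and Nusap1 already differed between the genotypes on the control diet, at 1.89, -2.19 and -1.58, and their KO and WT responses start from those levels. The control-diet call of Nusap1 was lost without any 1 of 4 libraries.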

How the results depend on the processing

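Counts of members called stayed within 1.5 times the reported count under the alternatives tried, except as follows. With scaling by library totals the count became 40 for Wy in WT (21 in the G1/S and 17 in the G2/M class), 29 for fenofibrate in WT, 5 for Wy in KO, 36 for the Wy interaction and 1 for Wy against fenofibrate; this scaling moves the median gene. Without a filter Wy in KO gave 2 calls. DESeq2 gave 2 for Wy in KO, 8 for fenofibrate in KO and 1 for Wy against fenofibrate. Fitting only the 2 groups gave 0 for fenofibrate in KO. Among members that overlap no other locus, 1 was called for fenofibrate in KO, 1 for KO control against WT control, 9 and 10 for the interactions with Wy and fenofibrate, as fewer genes were counted.

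The replicate numbers do not pair libraries (correlations of deviations between same-numbered libraries from -0.22 to 0.19). With the replicate number as a block, 5 members were called for fenofibrate in KO and 2 for Wy against fenofibrate, and the other counts were 22, 18, 1, 3, 14 and 17 for Wy in WT, fenofibrate in WT, Wy in KO, KO control against WT control and the interactions with Wy and fenofibrate.

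Leaving out each library in turn gave 18 to 23 calls for Wy in WT, 15 to 18 for fenofibrate in WT, 0 to 2 for Wy in KO, 0 to 8 for fenofibrate in KO, 2 to 4 for KO control against WT control, 10 to 14 and 13 to 20 for the interactions with Wy and fenofibrate, and 0 to 3 for Wy against fenofibrate.

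Of 83 values of members, 5 changed sign under some alternative, all for a diet in WT, and the cause was not tested. Ube2c with Wy turned to 0.77 (library totals), 0.014 (no filter) and, with single libraries left out, ranged from -0.24 to 0.14. With fenofibrate Ube2c turned to 0.046 and Birc5 to 0.59 with library totals. Cdk1 turned to 0.74 (library totals), 0.0030 (no filter) and ranged from -0.62 to 0.22 with single libraries left out. Mki67 turned to 0.76 (library totals) and ranged from -0.20 to 0.18 with single libraries left out. Of these only Ube2c with fenofibrate had been called.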
